A study of Mus musculus with 10 samples.

Results

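Introns with a cryptic 3′ splice site were the 2783 rows, of 32135 in the deposited intron table (8.66%), that the authors' classification names cryptic at the 3′ end. Such an intron joins a known 5′ splice site to a 3′ splice site missing from the annotation the authors used. The members were chosen by that class alone, without using a read count, and lie in 2442 of the 10838 leafcutter clusters (22.5%). A cluster is a group of introns that share splice sites, and beside the members 1837 different genes are named. RNA came from the cerebral cortex of mice at postnatal day 18, and ribosomal RNA was removed before random-primed sequencing. The Usp7 cKO group (n = 5) was made by crossing Usp7 fl/fl mice, whose Usp7 gene can be cut by Cre, with NEX-cre mice, in which Cre acts in glutamatergic neurons. The Usp7 WT group (n = 5) kept Usp7, and both groups were Trp53+/-, that is, both lacked 1 copy of the gene for p53. The study describes 5 pairs matched for litter and sex, and the sample labels do not say which animals form a pair. Whether the Usp7 WT animals carried Cre is not given in the sources used here. Other cells of the cortex keep Usp7 in this model. Its transcript was measured at 36.9 ± 3.96 TPM (SD, n = 5) in Usp7 cKO, where Usp7 WT had 53.9 ± 5.32.

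A 3′ splice site is read by the spliceosome in steps: SF1 and then the U2 snRNP with SF3B1 hold the branch point, and U2AF2 with U2AF1 hold the pyrimidine tract and the AG that ends the intron. A second AG nearby can be used in its place, and RNA-binding proteins such as PTBP1 and HNRNPC keep many other AGs deep in introns from being used. Transcripts whose reading frame is broken by a wrong site are often degraded by nonsense-mediated decay.

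A few sites show what these letters look like, given 5′ to 3′ on the sense strand of GRCm38 from GENCODE M21 transcripts. In the first set, the capitals mark the AG at the end of the cryptic intron, in a window of the last 20 intron bases and the first 3 exon bases. For Kifc2 the run begins at the first base of the annotated exon. Arpp21 (chr9:112157315-112157337, minus strand) and Kifc2 (chr15:76662101-76662113, plus strand) are shown because their use differed between the genotypes. Ptprs (chr17:56445908-56445930, minus strand) is shown because it was the most read of the sites that passed the fits with an offset and missed the main test, and Atp2b1 (chr10:99019258-99019280, plus strand) because it was heavily read in both genotypes.
Arpp21: agtcgctccactccctacAGctc
Kifc2: ggggtgacAGatt
Ptprs: accccctttacatccctcAGagc
Atp2b1: cgatctctgattccttgcAGatg
The second set shows tandem sites, the most read member for each of 4 triplets. Each run begins at the annotated 3′ splice site, and the capitals are the 3 bases that go to the intron when the cryptic site is used. They are Tcf25 (chr8:123403147-123403164, plus), Zmym4 (chr4:126900731-126900748, minus), Adgrb2 (chr4:130021563-130021580, plus) and Ptms (chr6:124914696-124914713, minus).
Tcf25: CAGctgtaagtccatccg
Zmym4: TAGcaagtatttccatgg
Adgrb2: AAGgtgatgcacactcgg
Ptms: GAGgaggagaatggagct

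Nearly all cryptic introns whose letters could be read ended in AG. A GENCODE M21 exon covered the last 20 intron bases of 838 members, and 834 of these (99.5%) had AG as the last 2 intron bases. Of the 1026 readable stretches between an annotated site and a cryptic site up to 60 bases downstream, 1022 (99.6%) ended in AG. By position, 1251 sites (45%) lay inside an M21 exon, and 962 of these 1251 (76.9%) were in coding sequence and 154 (12.3%) in untranslated sequence. A further 957 (34.4%) lay in introns or between genes. M21 lists 567 (20.4%) as 3′ splice sites, and 8 as the start of a first exon, so the class "cryptic" depends on the annotation used and about 1 member in 5 is an annotated site of M21.

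Most members had an annotated 3′ splice site on the same 5′ splice site for comparison, and the favoured distance was 3 bases. Such a partner was found for 2700 members (97%). The cryptic site lay downstream of it, inside the annotated exon, in 1340 (49.6%) and upstream in 1360. Within 30 bases lay 1122 (41.6%), and over 1000 bases away lay 836 (31%). Exactly 3 bases downstream lay 394 members (14.6%) and 3 bases upstream 137 (5.07%). At 4, 5 and 6 bases downstream there were 116, 76 and 67 members, and at the same distances upstream 6, 4 and 3. Of the 1122 near sites, 753 (67.1%) were a multiple of 3 bases away. Without the sites at 3 bases, 222 of 591 (37.6%) were, so that single distance held most of the multiples of 3.

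**Figure D1:**
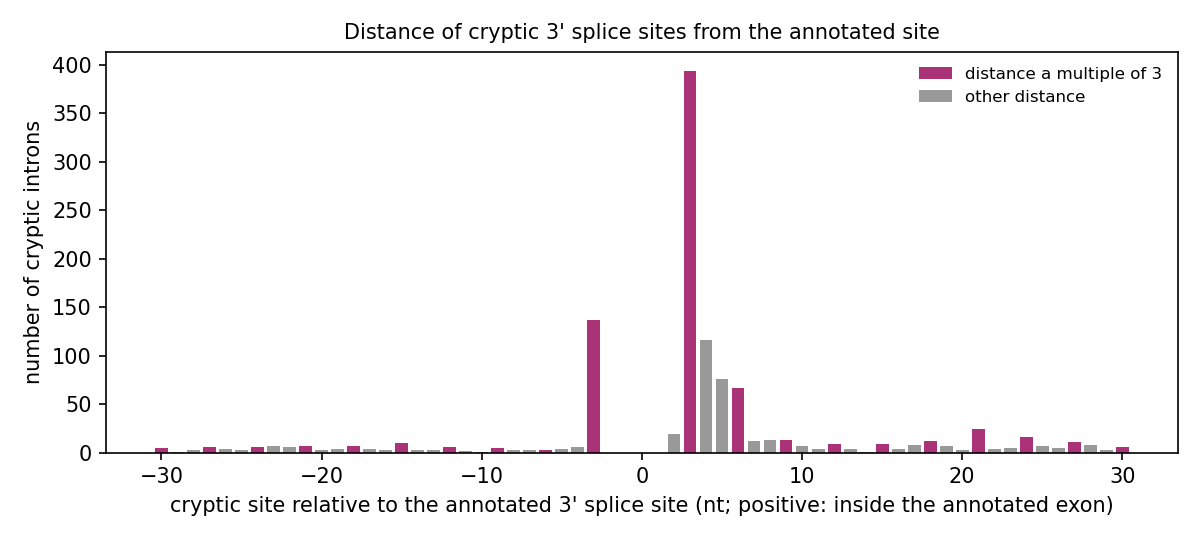
Number of cryptic introns (y axis) by distance of the cryptic site from the annotated 3′ splice site on the same 5′ splice site (x axis, nt; positive values lie inside the annotated exon), with distances that are multiples of 3 in purple. The bars at 3 nt downstream (394 introns) and 3 nt upstream (137) stand above their neighbours, and 4 to 6 nt downstream (116, 76 and 67) are filled while 4 to 6 nt upstream hold 6, 4 and 3.

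At sites 3 bases downstream, the added triplet was CAG in 192 of 394 (48.7%), AAG in 134 (34%), TAG in 40 (10.2%) and GAG in 27 (6.85%), with another triplet in 1. These triplets were read on the sense strand at that fixed place, and they do not overlap each other. Among 16449 annotated 3′ splice sites of the same table, the first 3 exon bases were CAG in 4.02%, AAG in 2.3%, TAG in 0.571% and GAG in 3.47%. Nearly all cryptic introns end in AG, so higher shares of these triplets at sites 3 bases downstream were fixed in advance. Of the 1704 annotated sites (10.4%) that began with 1 of the 4 triplets, 662 had CAG, 378 AAG, 94 TAG and 570 GAG. The share with CAG just before the cryptic site was 51.7% at 4 bases (60 of 116), 73.7% at 5 (56 of 76) and 80.6% at 6 (54 of 67). AAG went from 25.9% at 4 bases (30 of 116) to 9.21% at 5 (7 of 76) and 2.99% at 6 (2 of 67). TAG was at 21.6% at 4 bases (25 of 116), 15.8% at 5 (12 of 76) and 14.9% at 6 (10 of 67). Differences between the distances were not tested.

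For 624 members (22.4%) the same cluster held a cryptic 5′ splice site within 500 bases downstream, as an exon absent from the authors' annotation would. The rule did not ask whether the member lies outside an annotated exon, so alternative ends of a known exon can be included. Lengths run to the nearest such 5′ site, which in Atp2b1 was not the most read. By these lengths, 357 of the 624 stretches (57.2%) span a multiple of 3 bases. At most 27 bases long, the size of a microexon, were 106 (17%). Among the 624 are stretches in Rbfox1, Atp2b1 and Nrcam, genes that brain tissue transcribes strongly.

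Introns with a cryptic 3′ site took a small share of the reads in most clusters. Their median count over the 10 libraries was 10.3 reads, against 52.8 for annotated introns, and 1970 (70.8%) had reads in all 10 libraries. The share of a cluster's spliced reads taken by a member had a median of 5.67% in Usp7 WT and 5.90% in Usp7 cKO. It was under 5% for 1277 members (45.9%) and over 50% for 112 (4.02%). This share is not the rate at which a site is used, since a cluster can also count the intron on the far side of an exon. In Slc22a17 the member's share was 45.4% in Usp7 WT, where the intron that skips the stretch held 0.754%. By distance, the median share in Usp7 WT was 14.9% for sites 3 bases upstream, 7.39% for those 3 bases downstream, and 3.28% for other sites up to 30 bases downstream. The corresponding medians in Usp7 cKO were 13.5%, 7.26% and 3.37%. No member was at 0 in all 5 libraries of a group.

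The main comparison asks whether cryptic 3′ splice sites were used differently in cortex after loss of Usp7 from glutamatergic neurons. In 3 genes, Nrsn1, Arpp21 and Kifc2, a cryptic site rose in Usp7 cKO, and none passed the test in the other direction. The 2571 members (92.4%) with a mean of at least 5 reads were tested with edgeR's diffSpliceDGE. Nrsn1 and Kifc2 passed this minimum only through the Usp7 cKO libraries. The test's relative log change, given here in natural logs, is an intron's own change minus that of its cluster. P-values were adjusted over all 30733 introns tested. Those called higher were 3 (0.117% of members), where 0.0586% of all introns tested were called higher (18 of 30733). Those called lower were 0, where again 0.0586% of all introns were (18). In both directions together the called share was 0.117% of members and 0.117% of all introns, so the members were called no more often than the table as a whole. It was 0.084% for annotated introns and 0.223% for cryptic 5′ introns. Before adjustment, 75 members had p under 0.05 and were higher (2.92%, all introns 1.99%), and 44 were lower (1.71%, all introns 1.53%). A DESeq2 fit with each cluster's total as offset called 15 members higher (0.583%) and 6 lower (0.233%), where it called 0.661% and 0.566% of all introns. edgeR with the same offset, a fit chosen after seeing the data, called 6 higher (0.233%) and 4 lower (0.156%), where it called 0.407% of all introns in each direction. At the level of whole clusters, 6 of 2313 with a member (0.259%) passed the Simes test, where 0.22% of all 10441 clusters did.

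Most differences were smaller than the replicate spread. The absolute difference between group means had a median of 1.114 percentage points, against a median pooled SD of 2.39 points. It was smaller than the SD in 76.78% of tested members. Means of 5 libraries mostly differ by less than the SD even without an effect, so this share cannot show that differences are absent. All 5 Usp7 cKO libraries lay above all 5 Usp7 WT libraries for 35 members (1.36%), where 1.64% of all introns did so, and below for 21 (0.817%, all introns 1.64%). The median relative log change (natural log) was 0.02, and 1400 of 2571 (54.5%) were above 0. For all introns tested the median was 0.00, with 50.5% above 0, and of cryptic 5′ introns 55.2% were above 0. By distance, the share above 0 was 46.1% at 3 bases downstream (172 of 373), 53.3% at other distances up to 30 bases downstream (225 of 422) and 59.1% beyond 30 bases downstream (256 of 433). It was 50.4% at 3 bases upstream (66 of 131), 67.0% at other distances up to 30 bases upstream (69 of 103) and 55.8% beyond (574 of 1028), and 46.9% without an annotated partner (38 of 81). Filtering on a mean count keeps introns read in either group, so these counts describe members that passed it.

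**Figure D2:**
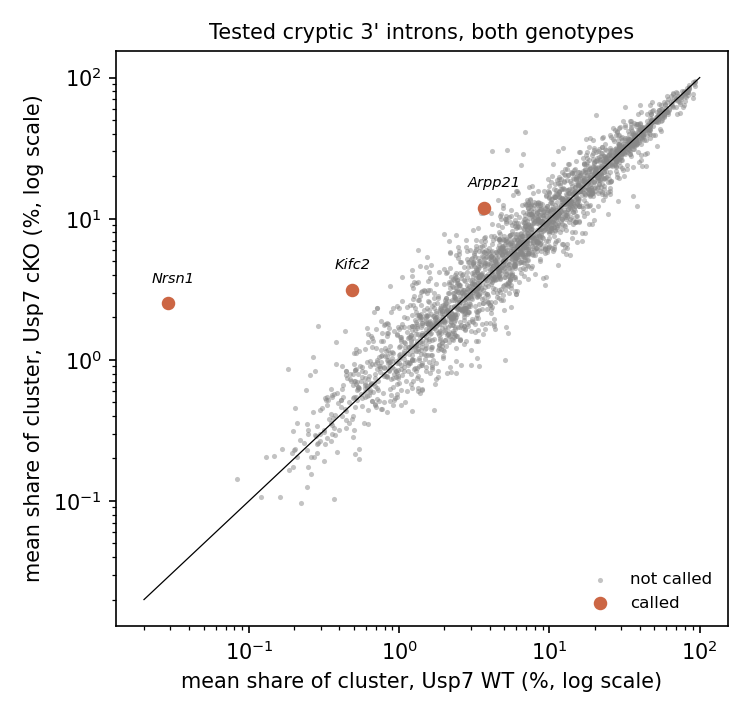
Mean share of cluster in Usp7 cKO (y axis, %, log scale) against Usp7 WT (x axis, %, log scale) for the 2571 tested introns with a cryptic 3′ site, with the line of equal shares. Most points follow the line, and the 3 called introns lie above it, Nrsn1 farthest (0.0290% against 2.51%).

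Nrsn1, which encodes neurensin 1, a membrane protein of neuronal vesicles, held the cryptic site with the clearest difference. The intron runs from 25255595 to 25262200 on chromosome 13 (minus strand), and its site lies in an intron of M21, 1844 bases upstream of the annotated 3′ site. It had 0, 0, 1, 0 and 0 reads in Usp7 WT replicates 1 to 5 and 9, 3, 16, 17 and 15 in Usp7 cKO. A single read was thus seen in Usp7 WT, and the Usp7 cKO libraries were all above. The intron's mean of 6.1 reads passed the minimum of 5 only through the Usp7 cKO libraries. With 572 to 679 cluster reads in the 4 libraries without a read, a count of 0 allows a share of up to 0.442 to 0.524% if it came from sampling alone, which was not tested. The share rose from 0.0290 ± 0.0649% to 2.51 ± 1.24% (SD, n = 5, relative natural log change 3.88, edgeR adjusted p = 0.000171). Pooled, 60 of 2448 reads against 1 of 3197 give a ratio of 78.4, with an exact 95% interval from 13.5 to 3146 that covers counting error only. The annotated intron kept 97.5 ± 1.24% of the cluster in Usp7 cKO, and the gene's level fell from 235 ± 18.3 to 183 ± 14.2 TPM (log2 -0.36, limma adjusted p = 0.00737). The call on the intron held in each of the 16 alternatives that gave a value, and the call on the gene did not hold once the libraries of discordant sex were left out (limma adjusted p = 0.0517).

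Arpp21, which encodes a cAMP-regulated phosphoprotein of neurons, had the largest rise in share of the 3. Its intron runs from 112157317 to 112157690 on chromosome 9 (minus strand) and ends in a noncoding exon of M21, 1798 bases upstream of the annotated site. Reads numbered 14, 13, 17, 8 and 10 in Usp7 WT and 26, 41, 40, 25 and 42 in Usp7 cKO, in clusters of 249 to 377 reads. The lowest Usp7 cKO library lay above the highest Usp7 WT library. The share rose from 3.69 ± 0.847% to 12.0 ± 2.47% (relative natural log change 1.15, edgeR adjusted p = 0.0290). A cryptic 5′ site lies 91 bases downstream, and the introns that leave it held 2.97 ± 1.78% and 2.18 ± 0.977% in Usp7 WT against 7.73 ± 1.51% and 7.39 ± 2.97% in Usp7 cKO (edgeR adjusted p = 0.481 and 0.204). Both sides of this exon-like stretch, whose length is no multiple of 3, therefore had more reads in Usp7 cKO, though the cluster as a whole did not pass (adjusted p = 0.0714). At the gene level, Usp7 WT had 151 ± 14.4 TPM and Usp7 cKO 134 ± 13.3 (limma adjusted p = 0.116). The call was lost on leaving out any of 8 single libraries (adjusted p up to 0.133), Usp7 WT replicate 3 and Usp7 cKO replicate 4 being the exceptions, and without both libraries of discordant sex (0.275).

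Kifc2, a kinesin motor of neurons, was the third member to rise. The intron (chromosome 15, 76662011 to 76662111, plus strand) ends 10 bases inside an exon that M21 gives as coding in some transcripts, and 10 is no multiple of 3. It had 7, 3, 2, 0 and 2 reads in Usp7 WT and 14, 11, 27, 13 and 5 in Usp7 cKO. Its mean of 8.4 reads passed the minimum of 5 only through the Usp7 cKO libraries. The library at 0, Usp7 WT replicate 4, had 555 reads in the cluster, so its share may be as high as 0.541% if the 0 came from sampling alone. The other libraries' shares gave 10.1 expected reads there, but these include the higher Usp7 cKO shares, and Usp7 WT libraries alone would give fewer. The call was lost without this library (edgeR adjusted p = 0.211). The groups overlapped, since Usp7 cKO replicate 5 (1.13%) lay below Usp7 WT replicate 1 (1.21%). The share rose from 0.482 ± 0.448% to 3.11 ± 1.67% (relative natural log change 1.88, edgeR adjusted p = 0.0375). The level of the gene fell from 455 ± 37.1 to 367 ± 35.4 TPM (log2 -0.31, limma adjusted p = 0.00999). The call held in 5 of 17 alternatives, and the adjusted p rose as far as 0.400 without Usp7 cKO replicate 3 and 0.385 without the libraries of discordant sex. It also missed the threshold without the sex covariate (edgeR adjusted p = 0.0516).

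**Figure D3:**
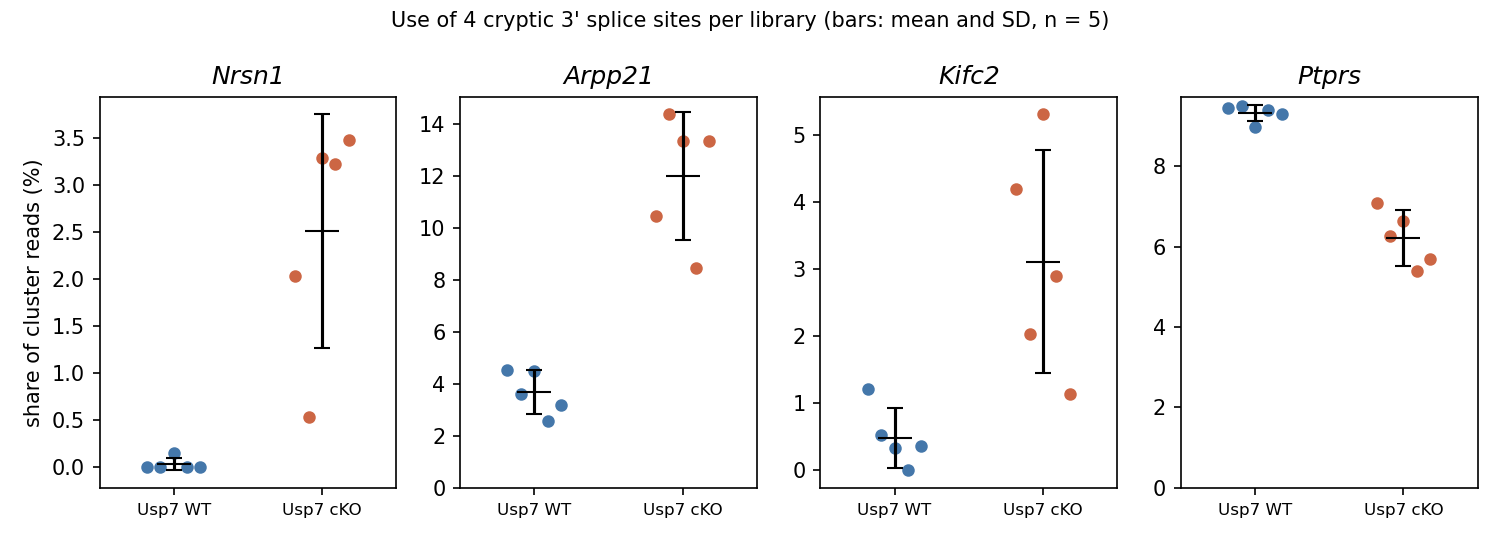
Share of cluster reads (y axis, %) taken by cryptic 3′ introns of Nrsn1, Arpp21, Kifc2 and Ptprs in each library (points), with mean and SD (n = 5) per genotype. The genotypes do not overlap for Nrsn1, Arpp21 (both higher in Usp7 cKO) and Ptprs (lower), and overlap for Kifc2.

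The 6 most read members that were not called were heavily used sites in both genotypes, and in each the groups overlapped. All but the site of Rbfox1 are listed in M21 as 3′ splice sites, so they are cryptic only by the authors' annotation. In Rbfox1, a neuronal splicing factor, a stretch of 53 bases that M21 places in an intron took 34.1 ± 1.48% of the cluster in Usp7 WT and 35.0 ± 2.15% in Usp7 cKO. The Usp7 WT shares ran from 32.2 to 35.4% and the Usp7 cKO shares from 31.5 to 36.7%, so the groups overlapped. Atp2b1, a calcium pump of the plasma membrane, had a site, printed above, with shares of 43.9 ± 1.72% in Usp7 WT and 42.3 ± 1.13% in Usp7 cKO. Several cryptic 5′ sites follow it. The nearest closes a stretch of 87 bases, and its intron held 8.82 ± 1.91% and 9.10 ± 0.477%. The most read, at 99019431, lies farther on, and its intron held 38.7 ± 2.50% and 40.1 ± 0.794%. Shares of the site in Camk2g, a calcium-dependent kinase subunit (63 bases), were 44.7 ± 1.67% and 45.9 ± 1.03%. The 18-base microexon of Nrcam, a neuronal adhesion protein, took 48.7 ± 1.95% and 49.4 ± 1.25%. The cytoskeletal gene Dmtn (42.1 ± 1.23% and 43.9 ± 1.03%) and the transporter gene Slc22a17 (45.4 ± 0.750% and 45.1 ± 1.21%) completed the 6. All 6 had an edgeR adjusted p of 1, and relative natural log changes lay between -0.04 and 0.04. Gene levels of 4 of the 6 passed the limma test. That of Slc22a17 rose from 560 ± 30.8 to 622 ± 18.7 TPM (limma adjusted p = 0.0339) and that of Atp2b1 fell from 180 ± 12.4 to 155 ± 5.52 TPM (limma adjusted p = 0.0271), calls that held in 7 and 11 of 17 alternatives. The gene level of Rbfox1 fell from 278 ± 20.8 to 220 ± 7.79 TPM (limma adjusted p = 0.00334) and that of Dmtn from 140 ± 8.18 to 110 ± 4.74 TPM (limma adjusted p = 0.00134).

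A further 6 members missed the main test and passed both fits with the cluster total as offset, so they were chosen after their values were seen. Ptprs, a receptor phosphatase of presynaptic adhesion, was the most read of them. Its site on chromosome 17 (intron 56445910 to 56447360, minus strand) opens a stretch of 12 bases before a cryptic 5′ site, the size of a microexon. M21 lists the site as a 3′ splice site. Shares were 9.44, 9.49, 8.97, 9.40 and 9.30% in Usp7 WT and 7.08, 6.27, 6.63, 5.39 and 5.69% in Usp7 cKO. All Usp7 cKO libraries lay below all Usp7 WT libraries. The difference from 9.32 ± 0.206% to 6.21 ± 0.687% had an edgeR adjusted p of 0.0874 in the main test, 0.00557 in edgeR with offset and 1.92e-11 in DESeq2. The intron that leaves the stretch on its other side also took less, 10.7 ± 0.372% against 7.15 ± 0.697% (edgeR adjusted p = 0.0787), and the intron that skips it took 34.3 ± 1.44% against 39.8 ± 2.19%. In the authors' deposited table, the exon bin that starts at this site has a log2 fold change of -0.52 (adjusted p = 9.94e-08). That bin runs from 56445848 to 56445910, well past the 12 bases, so it does not measure the stretch alone.

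The other 5 moved in both directions. Rbfox2, a splicing factor related to Rbfox1, had a site (chromosome 15, intron 77089893 to 77094451) that took 7.80 ± 0.843% in Usp7 WT and 11.2 ± 0.697% in Usp7 cKO, with no overlap. Its edgeR adjusted p was 1 in the main test, 0.0271 with the offset, and 0.0383 in DESeq2. A site of Atxn1 (chromosome 13, intron 45849588 to 45852328), the gene of ataxin 1, took 4.77 ± 0.808% and 2.68 ± 0.552%. One of Ndufa13, a subunit of respiratory complex I, took 4.97 ± 0.648% and 2.27 ± 0.290%, and its exon bin in the authors' deposited table belongs to the neighbouring Yjefn3, so the gene of these reads is uncertain. Pfkl, a phosphofructokinase, went from 2.38 ± 0.222% to 7.71 ± 3.49%. M21 lists the sites of Ndufa13 and Pfkl as 3′ splice sites. Car7, a carbonic anhydrase of neurons, went from 6.90 ± 1.63% to 41.4 ± 19.1% in a cluster with a mean of 38.8 reads. Its mean of 9.9 reads passed the minimum of 5 only through the Usp7 cKO libraries. In each of these 5 the genotypes did not overlap, and the main test's adjusted p lay between 0.059 and 1.

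The authors' exon bins gave a second readout of the same sites. In their deposited table, 611 members (22%) open an exon bin, and of 578 such bins with an adjusted p, 10 (1.73%) passed 0.05, where 0.573% of all bins did (1561 of 272512). These bins count the whole exon, not the junction, and many may open at known exons, since M21 lists 567 members as 3′ splice sites. Among the called members, the 6 most read and the 6 of the offset fits, each that opens a bin ends at such a listed site. How far the 1.73% describes sites known to M21 was not counted. Beside Ptprs, the table gives log2 fold changes of 0.50 for Hnrnpc and 0.32 for Myl6, a myosin light chain. The junction shares were 11.6 ± 0.775% and 14.5 ± 1.63% for Hnrnpc, and 19.5 ± 0.864% and 23.2 ± 1.91% for Myl6, whose genotypes did not overlap. For Hsf1, the heat shock transcription factor, the deposited log2 fold change is 0.58 and the shares were 28.0 ± 6.0% and 42.0 ± 8.08%, with overlap. For Dgkh, a diacylglycerol kinase, the deposited log2 fold change is -0.77 and the shares were 29.0 ± 3.71% and 19.4 ± 4.94%, also with overlap. The other 5 bins include some whose junction share was nearly level or lay the other way. For Fmnl1 the deposited log2 fold change is 0.49, with shares of 49.6 ± 2.04% and 49.5 ± 1.56%. For Tnrc6b it is 0.33, with shares of 29.3 ± 2.39% and 30.6 ± 5.93%, and for Rtn3 it is -0.24, with shares of 0.285 ± 0.166% and 0.219 ± 0.136%. The bin of Pou3f3 has a log2 fold change of 0.10 in the authors' deposited table, and the intron there, named for Gm20646, took 10.4 ± 5.55% and 7.99 ± 6.01%. For the long noncoding RNA Rian the deposited value is -0.52, with shares of 5.03 ± 0.730% and 3.85 ± 0.607%. Apart from Ptprs, the junctions of the bins that passed had an edgeR adjusted p of 1.

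Some cryptic introns were well read in most libraries and listed at 0 in others. This pattern was looked for after seeing the data. An intron counts here if a library has 0 reads where its share in the other libraries, times its own cluster total, gives at least 10. The other libraries are those of both genotypes, so a member that differs by genotype can be counted for that reason. Of 1821 members with at least 10 expected reads in some library, 149 (8.18%) had such a zero, and of all introns 4.36% did (1189 of 27283). The share was 0.539% of annotated introns (109 of 20225), 5.91% of cryptic 5′ introns (113 of 1911), 7.41% of new pairs of annotated sites (86 of 1160), 17.5% of introns with both sites unknown (37 of 212) and 35.6% of those with no known strand (695 of 1954). Among members it was 9.93% for sites that M21 lacks as 3′ splice sites (135 of 1360) and 3.04% for those M21 lists (14 of 461). By distance it was 4.76% at 3 bases downstream (14 of 294), 14.2% at other distances up to 30 bases downstream (39 of 275) and 15.1% beyond 30 bases downstream (44 of 292). Upstream it was 1.72% at 3 bases (2 of 116), 6.06% at other distances up to 30 bases (4 of 66) and 5.26% beyond (37 of 703), and without an annotated partner 12% (9 of 75). Usp7 WT libraries held 147 such zeros and Usp7 cKO libraries 122, and each library had one in 1.44 to 2.29% of the members it could show. What causes them was not tested.

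Ap1b1, a subunit of the AP-1 clathrin adaptor, shows the pattern at an upstream site (intron 5040421 to 5040921, chromosome 11). It had 219, 221, 0, 0 and 0 reads in Usp7 WT and 174, 0, 231, 267 and 0 in Usp7 cKO, so both genotypes held libraries with many reads and libraries with none. Prkar1a, a regulatory subunit of protein kinase A, had 102, 122, 114, 71 and 93 reads at a tandem site in Usp7 WT and 70, 0, 75, 0 and 0 in Usp7 cKO. Camk2b had 74 to 111 reads in 9 libraries and 0 in Usp7 cKO replicate 4. Smarca4, the ATPase of a chromatin remodeller, had 0, 21, 24, 21 and 25 reads in Usp7 WT and 0, 0, 0, 17 and 0 in Usp7 cKO. None of these 4 was called (edgeR adjusted p of 0.388 for Smarca4 and 1 for the others), yet Smarca4 was called lower once Usp7 cKO replicate 4 was left out. Of the 3 called members, Kifc2 is among the 149, through the 0 in Usp7 WT replicate 4. The 10.1 reads expected there rest in large part on the Usp7 cKO libraries. Arpp21 had reads in every library. Nrsn1 could not be judged by this rule, since 6.88 to 8.34 reads were expected in its 4 libraries at 0, below the minimum of 10. Those expected reads, too, came almost wholly from the Usp7 cKO libraries.

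**Figure D4:**
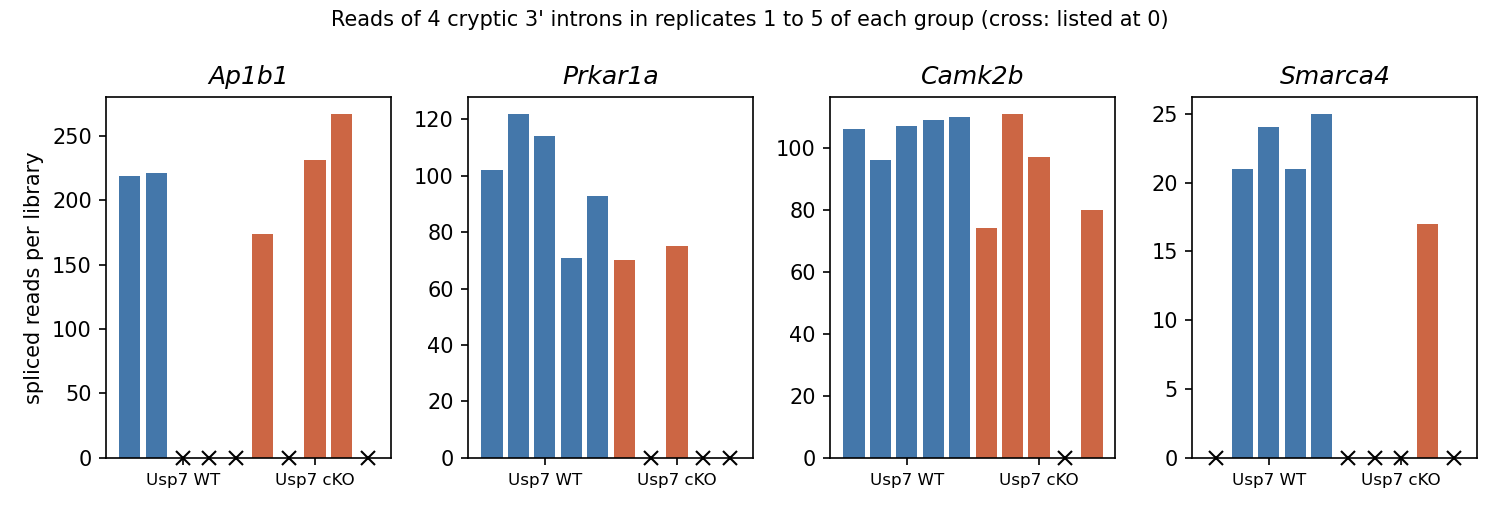
Spliced reads per library (y axis) of cryptic 3′ introns of Ap1b1, Prkar1a, Camk2b and Smarca4 in replicates 1 to 5 of Usp7 WT (blue) and Usp7 cKO (orange), with crosses at libraries listed at 0. Libraries are either well filled or at 0, in both genotypes for Ap1b1 and Smarca4 and in Usp7 cKO for Prkar1a and Camk2b.

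None of the 4 tandem examples printed above was called, and the groups overlapped in each. Tcf25, with CAG, used the cryptic site in 40.8 ± 2.78% of reads in Usp7 WT and 37.0 ± 2.40% in Usp7 cKO. Zmym4, a zinc finger gene with TAG, used it in 55.7 ± 9.40% and 59.8 ± 10.1%, so the cryptic site was the major one. Adgrb2, an adhesion receptor with AAG, had 17.0 ± 1.76% and 18.2 ± 0.709%. Ptms, which encodes parathymosin, with GAG, had 2.75 ± 1.68% and 2.14 ± 2.02%, and it belongs to the members with such zeros, in Usp7 WT replicate 2 and Usp7 cKO replicates 3 and 4. In its other 7 libraries it had 71 to 109 reads.

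Summed over all members, cryptic 3′ introns held a small part of spliced reads. In Usp7 WT replicates 1 to 5 they took 1.99, 1.96, 1.96, 1.92 and 2.10% of intron reads, and in Usp7 cKO 2.00, 2.04, 2.12, 2.04 and 2.09%. The ranges overlapped because Usp7 WT replicate 5 lay as high as most Usp7 cKO libraries. The means were 1.99 ± 0.0696% and 2.06 ± 0.0476%. Cryptic 5′ introns took 2.13 ± 0.0539% and 2.20 ± 0.0283%. Tandem sites 3 bases downstream took 0.276 ± 0.00724% and 0.274 ± 0.00656%.

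**Figure D5:**
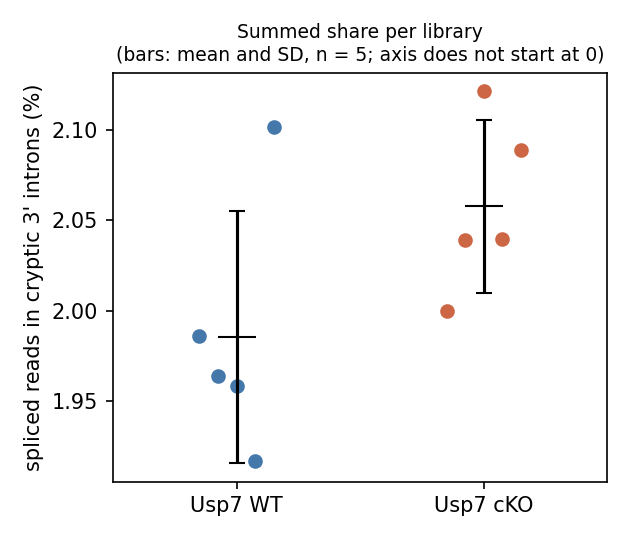
Percent of all intron reads that fall in introns with a cryptic 3′ site (y axis, which does not start at 0) in each library (points), with mean and SD (n = 5) per genotype. Usp7 WT ran from 1.92 to 2.10% and Usp7 cKO from 2.00 to 2.12%.

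Genes that read, guard or clear such sites differed in few cases. Levels were tested with limma on log2(TPM + 0.5), where 9.22% of all genes tested were higher in Usp7 cKO and 4.67% lower (2544 and 1288 of 27580), with a median log2 change of 0.06. Of 25 tested genes for branch point and 3′ site recognition, 1 rose, Sf3b3, a subunit of the SF3B complex, from 24.8 ± 1.14 to 29.1 ± 1.08 TPM (log2 0.23, adjusted p = 0.0174). U2af2 was at 94.3 ± 7.36 and 89.2 ± 7.44 TPM, U2af1 at 29.7 ± 4.15 and 31.0 ± 1.45 TPM, and Sf3b1 at 58.3 ± 4.37 and 62.3 ± 5.14 TPM, none past the threshold. Of 15 tested RNA-binding repressors 2 rose and 1 fell. Hnrnpa1 rose from 108 ± 6.44 to 128 ± 11.6 TPM (log2 0.25, adjusted p = 0.0181), and Ptbp1, the polypyrimidine tract protein of non-neuronal cells and progenitors, from 18.2 ± 1.55 to 23.5 ± 3.90 TPM (log2 0.35, adjusted p = 0.0369). Hnrnpc, which covers uridine tracts in front of cryptic sites, fell from 71.6 ± 7.26 to 59.2 ± 0.916 TPM (log2 -0.27, adjusted p = 0.0275), and the Usp7 cKO libraries lay between 58.4 and 60.4 TPM, below all Usp7 WT libraries. The limma test called none of 9 second-step factors and none of 10 genes of nonsense-mediated decay, and none of either list had an unadjusted p under 0.05. U2af1l4 and Raver1 lay below the TPM minimum. Of 17 alternatives, the call held in 14 for Sf3b3, 16 for Hnrnpa1, 9 for Hnrnpc and 9 for Ptbp1. Without the libraries of discordant sex, the factor genes called went to 0 in both directions.

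Genes that host the tested members include both risers and fallers. Of 1648 hosts, 151 rose (9.16%) and 200 fell (12.1%), 21.3% in all. Of the 5429 genes with any tested intron, 9.49% rose and 9.49% fell, 19% in all. In TPM rescaled with size factors taken as medians of ratios, 159 of 1646 hosts were higher (9.66%) and 460 lower (27.9%). On that scale, 10.1% of genes with any tested intron were higher and 23.7% lower, and of all genes 9.6% were higher and 10.9% lower (2643 and 3005 of 27535).

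Markers of some cell types moved with genotype. All 5 glutamatergic markers fell (their summed TPM was 1730 to 1902 in Usp7 WT libraries, and 1260 to 1431 in Usp7 cKO). Neurod6, the locus of the Cre, fell most, from 52.1 ± 1.97 to 24.2 ± 2.45 TPM (log2 -1.10). The part of the Cre allele in this fall was not tested. Among the rest, log2 changes ran from -0.585 (Tbr1) to -0.230 (Neurod2). All 5 microglial markers fell too (190 to 226 and 129 to 151 TPM). Of the other lists of 5, 1 GABAergic marker (Pvalb) fell, 1 astrocyte marker (Gfap) rose, and none of oligodendrocytes was called. Fewer cells of a type and less RNA per cell cannot be told apart in whole cortex, and the part of cell composition in the rises of Nrsn1, Arpp21 and Kifc2 was not tested. Library identifiers run in genotype order, so library order and genotype cannot be told apart. Sex-linked transcripts went against the labelled sex in the libraries labelled Usp7 WT replicate 2 and Usp7 cKO replicate 1. Used intron counts summed to 3388310 to 4367711 per library, after Usp7 WT replicate 1, in which every count was even, was halved.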

How the data were processed

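Intron counts are spliced reads per leafcutter intron, made and classified by the authors, per the file headers; they are deposited unfiltered. STAR 2.7.9a, SAMtools 1.10, Subread, featureCounts and GRCm38 are named in the submitters' processing notes, with no role given. The class column and clusters were used as deposited. Every count of Usp7 WT replicate 1 was even (52.8 to 55.0% elsewhere), and its total of 8358248 was halved to 4179124. A share is an intron's percent of its cluster's reads in a library.

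Introns with a mean count of at least 5, in clusters with at least 2 such introns, were tested with edgeR 4.0.16 (TMM, glmQLFit, diffSpliceDGE) in R 4.3.3, labelled sex as covariate, and Benjamini-Hochberg adjustment over all introns tested at a threshold of 0.05. DESeq2 1.42.0 was an alternative. Gene levels are the authors' deposited TPM (55487 genes after 287 repeated lines were dropped), tested with limma 3.58.1 (trend, robust, labelled sex) for genes whose mean TPM reached 0.5. In the main fits, the labelled sex goes against the sex-linked transcripts in Usp7 WT replicate 2 and Usp7 cKO replicate 1. No fit used sex taken from transcripts. The log2 fold changes and p-values of exon bins are the authors' deposited DEXSeq values. Tests were two-sided, and the code of the intron and gene fits was tried on simulated data. Positions and sequences come from GENCODE M21 on GRCm38; no genome sequence was used here, so sites outside M21 exons have no letters.

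The text names each called member, the 6 most read members not called, and up to 4 called genes per list. Members of other groups named in the text were chosen after their values were seen. The members and lists were chosen with earlier results of these data known. Tables were made with pandas 2.3.3 and numpy 2.4.6 in Python 3.11.15, and plots with matplotlib 3.10.9. The alternatives were another sex model, count minimum, scaling, tool, pseudocount or TPM minimum, the column as deposited, and libraries left out. Precision rests on 5 libraries a group and, for a typical member, about 10 reads a library.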

Additional observations from a re-analysis of the deposited data

Results flagged for a closer look

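In the Nrsn1 cryptic intron, Usp7 WT replicate 3 had a share of 0.145%, from a single read, and stood apart from the other 4 Usp7 WT libraries, which had 0. The gene level of Car7 was 34.1 TPM in Usp7 cKO replicate 3, apart from 17.5 to 21.7 TPM in the other 4 Usp7 cKO libraries. The rule is Dixon's test for 1 outlying value among 5 (critical value 0.71). Chance alone flags about 1 in 20 groups of normally distributed values by this rule. A group with a single read and 0 in the other 4 libraries, as for Nrsn1, is always flagged.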

How the results depend on the processing

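Members called higher, 3 in the main fit, were 1 with a mean count of at least 10, 15 with DESeq2, 6 with edgeR and cluster totals as offset (added after seeing the data), 1 without the libraries of discordant sex, and 1 to 3 with any 1 library left out. Members called lower, 0 in the main fit, were 6 with DESeq2, 4 with the edgeR offset, and 0 to 1 with a library left out. All introns called, 36 in the main fit, were 377 with DESeq2, 250 with the edgeR offset, 21 without the libraries of discordant sex, and 16 to 32 with a library left out. The difference in summed share, 0.0722 points, was 0.2218 points within clusters that hold a member, and 0.0551 to 0.1013 with a library left out. Splicing factor genes called higher, 3 in the main fit, were 0 without the libraries of discordant sex and 1 to 3 with a library left out. Those called lower, 1 in the main fit, were 4 in rescaled TPM, 0 without the libraries of discordant sex, and 0 to 1 with a library left out. Host genes called higher, 151 in the main fit, were 67 without the libraries of discordant sex and 100 to 160 with a library left out. Host genes called lower, 200 in the main fit, were 460 in rescaled TPM and 132 to 227 with a library left out. The cause of these shifts was not tested. No result past the threshold turned its direction. Of those not past it, the Slc22a17 intron (natural log change -0.02 to 0.0046) changed sign in some alternatives. So did the gene levels of Camk2g (log2 -0.09 to 0.03), Car7 (-0.13 to 0.08) and Pfkl (-0.08 to 0.02). Counts stayed within 1.5 times the main value, or the difference within 1 SD, in 129 recomputations and not in 40. No paired analysis was possible because the labels do not say which animals form a pair. About 10 reads per library limit a typical member, and Nrsn1 has no value under the higher count minimum or without Usp7 cKO replicate 4.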
